A study of Drosophila melanogaster with 12 samples.

Results

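The domain described here is a 619 kb stretch of Drosophila melanogaster chromosome arm 3L, at chr3L:14008000-14627000 of the dm6 build, which runs through cytological bands 70C to 70E. Its members are 600 of the 118985 windows that the deposited tables hold for arms X, 2L, 2R, 3L and 3R, and every one of them lies inside these limits. The limits were chosen by rawRT itself: they were set by the comparison of WT follicle cells with WT salivary gland, in which the gland was the later tissue over the stretch as a whole. Every difference that involves WT salivary gland or WT follicle cells is therefore given as a description, with no test, and tests are confined to groups that the choice did not use. The exception is an alternative fit that took its estimate of the spread from all 6 groups.

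Replication timing (RT) was measured in 6 groups of 2 libraries each. Rif1 salivary glands carried the Rif1 alleles 1 and 2 over each other, a null combination, and SuUR salivary glands carried SuUR ES; WT salivary glands were Oregon-R, and all 3 came from female larvae of the third instar before wandering, about 20 larvae per genotype. WT fat bodies were from 25 Oregon-R female larvae per library, collected 96 h after egg laying. The wing discs were from yellow white female larvae. The ovarian follicle cells were from adult Oregon-R females fattened for 2 days, at 200 ovary pairs per library. Both sets come from an earlier study that sorted cells in S phase. The mutant strains are in a w background that the WT strain lacks, each mutant is represented by a single allele or allele pair, and the sorted tissues were profiled by another method than the salivary glands and fat bodies, so background and genotype, or method and tissue, cannot be told apart. The tests below set fat body and wing disc against SuUR glands, so there tissue cannot be told apart from SuUR genotype and strain either.

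Eukaryotic DNA is copied in an order: some domains replicate early in S phase and others late, and late domains tend to be poor in genes and active transcription. Salivary glands and fat bodies of larvae are polyploid, since their cells endocycle, that is, repeat S phase without dividing, and parts of their late-replicating DNA are left underreplicated (UR). Rif1 is a conserved protein that delays origin firing in late domains through a protein phosphatase, and SUUR is a chromatin protein that slows replication forks in late DNA. The measure used here, rawRT, is the authors' unitless score before smoothing, and a higher value means earlier replication. In glands and fat bodies it was scaled so that 0 is near the mean of arm regions without UR and pericentric heterochromatin. Over the whole arms in bins of 50 windows, UR included, the mean was lower: -0.111 in Rif1 glands and -0.455 in fat body. It was -0.366 in SuUR glands and -0.734 in WT glands, against -0.0625 in wing discs and -0.0704 in follicle cells.

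Short stretches from the RefSeq copy of the dm6 assembly serve as examples of DNA at the extremes of the domain. The central 200 bases of 3 of its 12 bins (50 consecutive windows each) are printed 5′ to 3′ on the plus strand. They are bin 1, the earliest bin in every salivary gland genotype, bin 7, the latest in WT salivary gland, and bin 12, the proximal end, where fat body and salivary gland stood farthest apart. Capitals mark runs of 6 or more A or of 6 or more T, which were searched on this strand and so cover both. The stretch from bin 1 overlaps coding sequence of CG6650 but is not coding throughout. Its start holds a stop codon in every forward reading frame.
Bin 1, chr3L:14032900-14033099, in coding sequence of CG6650: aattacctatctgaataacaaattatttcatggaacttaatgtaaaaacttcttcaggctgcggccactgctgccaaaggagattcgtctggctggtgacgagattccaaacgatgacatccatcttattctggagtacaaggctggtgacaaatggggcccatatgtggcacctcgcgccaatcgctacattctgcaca
Bin 7, chr3L:14341900-14342099, in an intron of fz: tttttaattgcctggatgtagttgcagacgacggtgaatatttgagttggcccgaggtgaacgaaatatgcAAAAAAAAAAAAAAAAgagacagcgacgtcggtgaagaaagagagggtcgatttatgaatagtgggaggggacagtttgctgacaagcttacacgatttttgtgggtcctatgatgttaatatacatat
Bin 12, chr3L:14601900-14602099, between genes: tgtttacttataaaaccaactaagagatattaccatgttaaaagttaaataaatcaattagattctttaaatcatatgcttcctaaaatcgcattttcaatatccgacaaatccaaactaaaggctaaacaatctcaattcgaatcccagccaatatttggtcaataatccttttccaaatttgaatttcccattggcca
GC content was 45.5% in the stretch from bin 1, 40.0% in that from bin 7 and 29.5% in that from bin 12, and the only run is the 16 A in the fz intron. Over the whole bins GC was 47.0% in bin 1, 38.9% in bin 7 and 38.4% in bin 12. Protein-coding genes covered 56.5% of bin 12, so its stretch does not stand for the bin. A run was present in 4 of the 12 such stretches of the domain (33.3%), against 742 of the 2382 of all bins (31.2%).

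The base composition of the whole domain was on the AT-rich side. GC was 39.9% over the domain, with a median of 39.1% over its bins against 42.4% over all bins. The richest bin was bin 1, at 47.0%, and the poorest was bin 5, at 38.0%. Protein-coding genes covered a median of 64.6% of a domain bin, against 81.1% of a bin on the arms, and a domain bin held a median of 3.5 protein-coding genes against 5. The annotation places 54 genes in the domain: 43 are protein-coding, 8 give long noncoding RNAs and 3 antisense RNAs. Bin 1 alone touches 10 protein-coding genes, whereas bins 6, 7, 9 and 10 lie largely or wholly within fz and bbg.

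Between 102 and 6807 windows of the arms lacked a value per library, and smoothed profiles of the 2 libraries of a group correlated at r of 0.957 to 0.992 over the arms. The tables hold no read counts, so the depth behind a value is unknown. The labels of the mutant glands were checked at the mutated genes. Both Rif1 libraries had a value in 2 of the 6 windows over Rif1 (chr2R:15864309-15869147), whereas every other library had one in all 6. The 6 windows over SuUR on 3L carried values in all 12 libraries, so they give no such check for SuUR glands. DNA profiles hold no expression markers with which the tissues could be checked.

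Over the whole domain, the 3 salivary gland genotypes were the 3 latest groups. Rif1 glands had a domain mean of -0.323 in replicate 1 and -0.372 in replicate 2, and fat bodies had -0.0617 and 0.00931. Wing discs had 0.103 and 0.0843, and follicle cells 0.0854 and 0.250. SuUR glands had -0.847 and -0.646, and WT glands -0.872 and -0.751. Both Rif1 libraries lay above all 4 SuUR and WT gland libraries and below all 6 libraries of the other tissues, while SuUR and WT glands overlapped, as did wing discs and follicle cells.

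**Figure D1:**
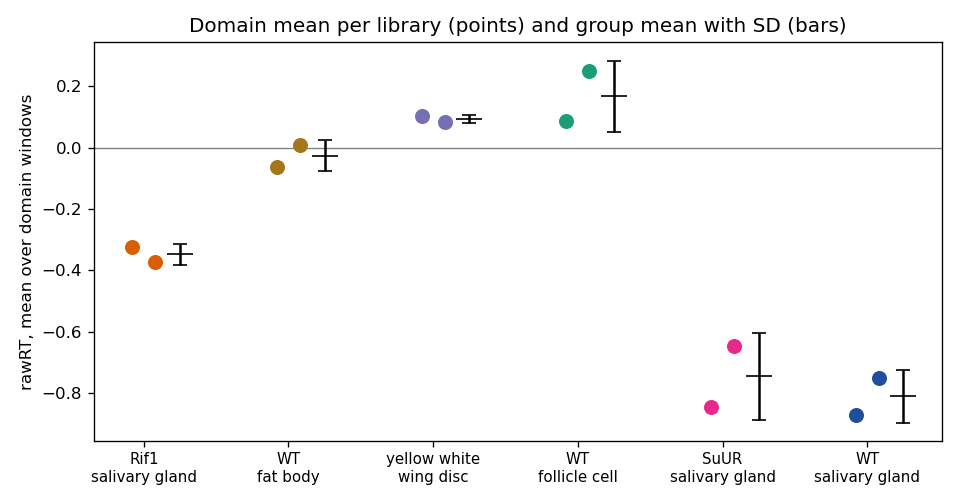
Mean rawRT (unitless score, vertical axis) over the 600 domain windows in each of the 12 libraries (coloured points), with the mean and SD of each group of 2 in black. Both Rif1 gland libraries lie between the 4 SuUR and WT gland libraries, all under -0.6, and the 6 libraries of the other tissues.

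The order of the group means ran from follicle cells at 0.168 ± 0.117 and wing discs at 0.0937 ± 0.0133, through fat body at -0.0262 ± 0.0502 and Rif1 glands at -0.348 ± 0.0345, to SuUR glands at -0.746 ± 0.142 and WT glands at -0.812 ± 0.0854 (SD, n = 2 each). The neighbours that did not differ beyond their spread were follicle cells and wing discs at the early end, and SuUR and WT glands at the late end. The smoothed table gave the same order, with means of -0.344 in Rif1 glands, -0.0319 in fat body, 0.0938 in wing discs, 0.175 in follicle cells, -0.754 in SuUR glands and -0.799 in WT glands.

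The label of a domain that is late in salivary gland held for all 3 gland genotypes in bins 3 to 12, not in bin 1, and only in part in bin 2. In bin 1 (chr3L:14008000-14058000), rawRT was 0.843 and 0.885 in Rif1 glands, 0.593 and 1.12 in SuUR glands, and 0.444 and 0.779 in WT glands. The same bin was the latest of the domain in follicle cells, at -0.360 and -0.259. It replicated early in all 6 gland libraries and late in both follicle cell libraries, so the tissue contrast there ran opposite to that of the domain as a whole. In bin 2 the values were 0.305 and -0.0920 in Rif1, -0.186 and -0.278 in SuUR, and -0.192 and -0.348 in WT.

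From bin 3 to bin 12 every bin was below 0 in all 6 gland libraries. This run of 10 bins, picked out after its values were seen, averaged -0.504 and -0.527 in Rif1 glands, -1.09 and -0.845 in SuUR glands, and -1.07 and -0.947 in WT glands. In fat body it averaged -0.150 and -0.00599. In wing discs the values were 0.101 and 0.0670, and in follicle cells 0.107 and 0.276. These bins leave out bins 1 and 2, where the glands were earlier than in the rest of the domain.

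**Figure D2:**
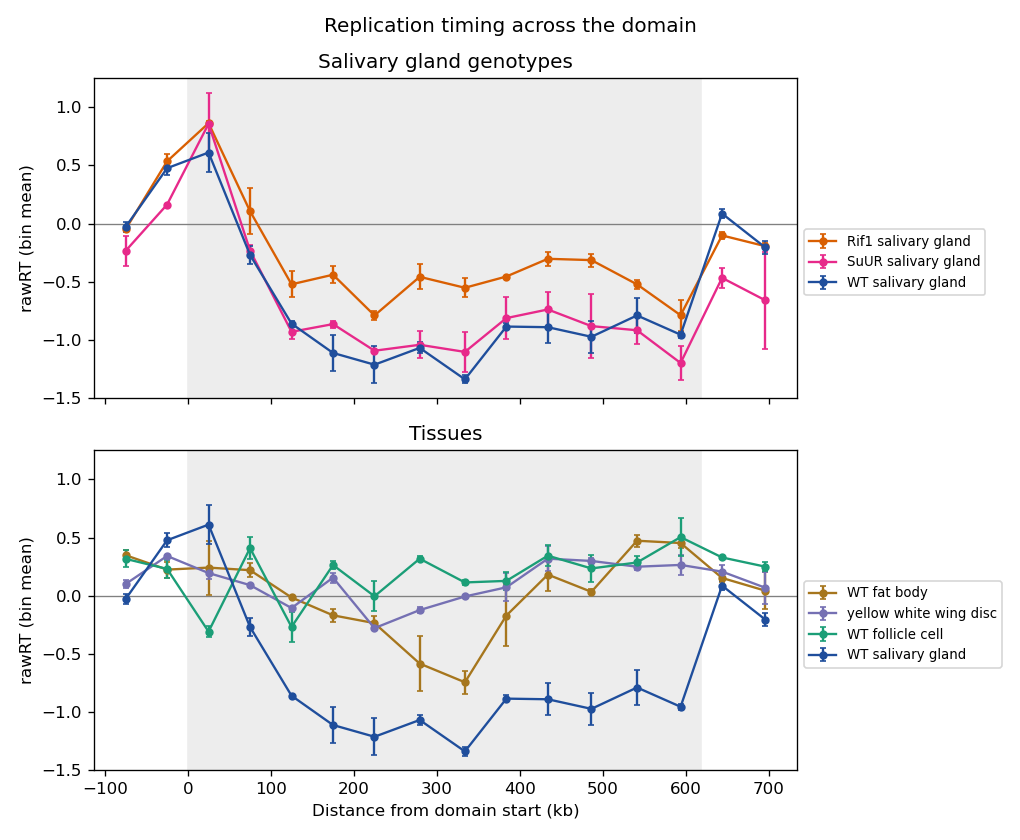
Bin means of rawRT (vertical axis) by distance from the domain start in kb (horizontal axis), with the domain shaded and 2 bins beyond each end. Points are means of 2 libraries and bars span both; the top panel shows the salivary gland genotypes and the bottom panel the 4 tissues, in which WT gland dips to -1.34 at bin 7 while fat body dips to -0.746 there and climbs to 0.473 at bin 11.

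The profile within the domain also differed between tissues. WT glands were latest in bin 7 (chr3L:14317000-14367000), in fz, at -1.31 and -1.38. Fat body had its lowest bin there too, at -0.843 and -0.648. From bins 6 and 7 to bins 11 and 12, the fat body mean was higher by 1.34 in replicate 1 and by 0.918 in replicate 2, and the WT gland mean by 0.206 and 0.465. In Rif1 glands the same step was -0.0925 and -0.209, and in SuUR glands 0.0106 and 0.00252. Fat body therefore had both a late middle and an early proximal end inside the domain, whereas the proximal end stayed late in all 3 gland genotypes.

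The remaining extremes fell in other bins. Rif1 glands and wing discs were latest in bin 5 (chr3L:14208000-14258000), in nuf, at -0.791 ± 0.0545 and -0.280 ± 0.0159, and SuUR glands in bin 12 (chr3L:14577000-14627000), at -1.20 ± 0.206 (SD, n = 2). The highest bin was bin 11 in fat body, bin 9 in wing discs, at 0.318 ± 0.155, and bin 12 in follicle cells, at 0.504 ± 0.233. The range from the lowest to the highest bin mean was 1.65 in Rif1 glands, 1.22 in fat body, 0.598 in wing discs, 0.813 in follicle cells, 2.06 in SuUR glands and 1.95 in WT glands.

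Single windows reached further than bins. The lowest window in the mean of WT glands was chr3L:14224000-14225000, in nuf, at -3.60, and the lowest of Rif1 glands was chr3L:14341000-14342000, in fz, at -2.31. The highest window of both genotypes was chr3L:14050000-14051000 in bin 1, at 2.76 in Rif1 and 2.39 in WT. Windows of 1 kb are noisy: the SD over domain windows within a library was 0.873 to 1.09, which is why bins of 50 windows carry the comparisons.

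As a description of shape, the 12 bin means of SuUR glands correlated with those of WT glands at r = 0.963 and those of Rif1 glands at r = 0.929, and Rif1 with SuUR glands at r = 0.980. Fat body correlated with WT glands at 0.504, wing discs at 0.296 and follicle cells at -0.389. These bins are neighbours on one chromosome and share gene density and base composition, so they are not independent points, and bin 1 weighs on each coefficient.

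Set against WT glands bin by bin, Rif1 glands were higher in all 12 bins without overlap of the libraries, whereas 42.6% of 2350 bins over the arms were higher in this sense. The differences ran from 0.167 to 0.788, with a median of 0.43 against 0.058 over all bins. SuUR glands were higher without overlap in bins 4 and 7 and lower in bin 12, against 30.6% higher and 23.4% lower over the arms, and their median difference from WT was 0.082. Fat body was higher in 11 of the 12 bins, all but bin 1, against 40.1% over the arms. Wing discs were higher in 11 and lower in bin 1, against 52% higher and 33.1% lower. Follicle cells were likewise higher in 11 and lower in bin 1, against 52.9% and 35%, but this is the contrast that chose the domain. WT gland values were low here by choice, so these counts describe the domain and are not support for any group's difference.

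Rif1 glands were then compared with SuUR glands, since neither group took part in choosing the domain. Each library's mean per bin was tested with limma, and p-values were adjusted by Benjamini-Hochberg over all 2351 bins of the arms. Rif1 glands had the higher mean in all 12 bins and lay above SuUR glands without overlap in 11, against 39.8% of all bins. In limma, 0 of the 12 passed an adjusted p of 0.05, against 18.9% of all bins called higher, and 5 had an unadjusted p under 0.05, against 38.8% of all bins. The median difference was 0.41 in the domain and 0.089 over all bins. The largest was in bin 6 of fz, at 0.585 ± 0.180 (SE, limma, adjusted p = 0.0545). In bin 1 the genotypes were alike in mean, 0.864 in Rif1 and 0.859 in SuUR, with a difference of 0.00524 and a 95% confidence interval of -0.502 to 0.513.

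For the domain as one value, Rif1 exceeded SuUR glands by 0.399, and the libraries did not overlap. An exact two-sided permutation test of 2 against 2 cannot give less than p = 0.333, the value obtained here and for each tissue below. Where all 6 groups shared one estimate of the spread, limma called 6 bins higher, against 22.2% of all bins. That estimate also drew on the WT gland and follicle cell libraries, whose values chose the domain, so these calls are only a description. Without SuUR replicate 2, limma called 1 bin higher, against 14.2% of all bins.

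Fat body passed the test as higher than SuUR gland in bins 3 to 5 and 9 to 12. Bins 1 and 2 at the distal end and bins 6 to 8 in the middle did not pass. In limma, 7 of the 12 bins were called higher (bins 3, 4, 5, 9, 10, 11 and 12, with adjusted p up to 0.0492), against 9.48% of 2268 bins over the arms, and none lower, with 9 at an unadjusted p under 0.05, against 39.4% of all bins. The largest differences were at the proximal end: 1.65 ± 0.186 in bin 12 (SE, limma, adjusted p = 0.0206) and 1.39 ± 0.180 in bin 11 (adjusted p = 0.0208). In bins 6, 7 and 8 the differences were 0.458, 0.359 and 0.642, with limma's adjusted p of 0.203, 0.251 and 0.126, and the last was close to the 0.696 of bin 4, which passed. Bin 1 was lower in fat body by mean, with 0.241 in fat body and 0.859 in SuUR glands, and did not pass (difference -0.617, limma, adjusted p = 0.157). Bin 2 was higher in fat body by 0.451 and did not pass either (limma, adjusted p = 0.111).

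Fat body calls became fewer over the whole arms when any library was left out. Limma called 2 domain bins higher without fat body replicate 1 and 3 without fat body replicate 2, against 4.41% and 5.95% of all bins. It called 0 without SuUR replicate 1 or without SuUR replicate 2, where 1 and 2 of all 2268 bins were called in either direction, and 8 and 7 domain bins had an unadjusted p under 0.05, against 26.2% and 28.8% of all bins. A lone library is there assumed to vary like the other group.

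Wing discs differed from SuUR glands over nearly the whole domain. Limma called 10 bins higher, against 30.5% of 2353 bins over the arms, and 1 lower, against 16.7%. The largest difference was again in bin 12, at 1.46 ± 0.151 (SE, limma, adjusted p = 0.00144), where wing discs averaged 0.264 and SuUR glands -1.20. The bin called lower was bin 1, with 0.194 in wing discs and 0.859 in SuUR glands (difference -0.664, adjusted p = 0.0370). Bin 2 did not pass, at 0.323 (adjusted p = 0.0666). Limma called 3 bins without wing disc replicate 1 and 5 without wing disc replicate 2, all higher, against 10% and 10.1% of all bins called higher in those fits.

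**Figure D3:**
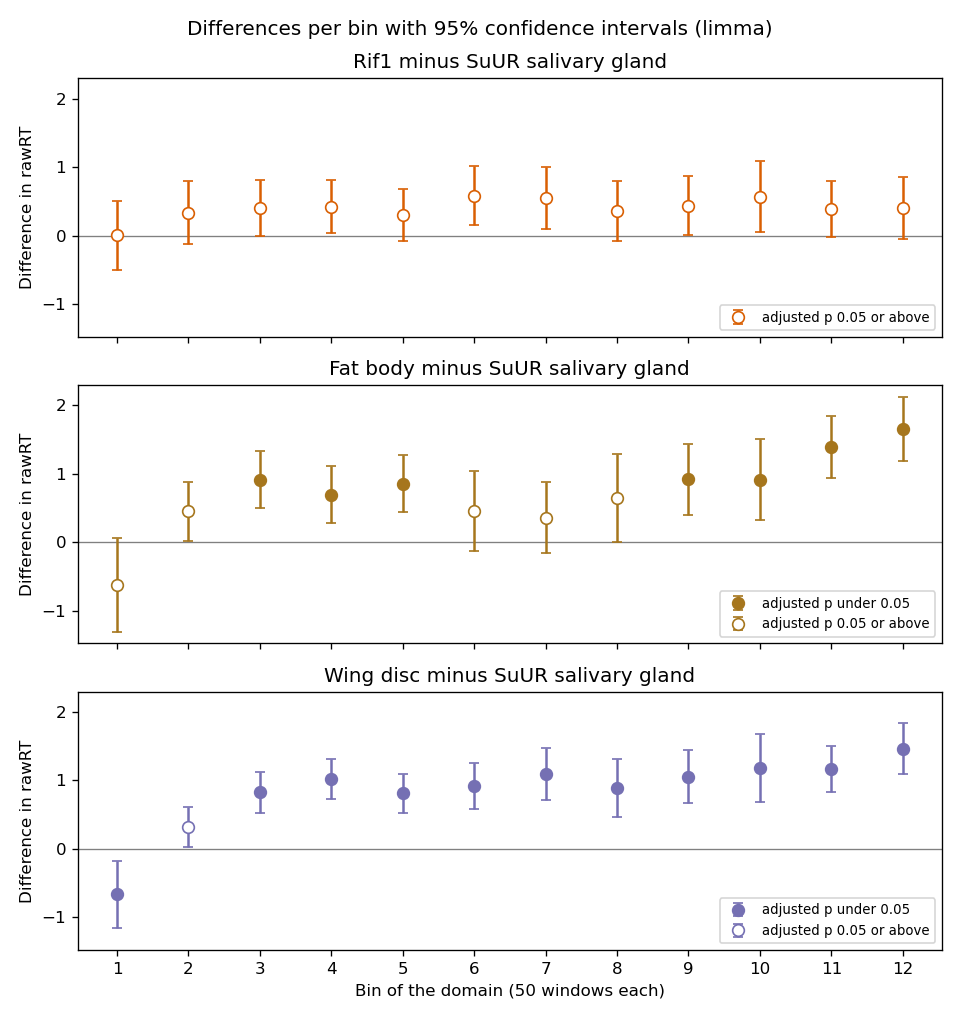
Difference in rawRT per bin (points, vertical axis) with 95% confidence intervals from limma, for Rif1, fat body and wing disc minus SuUR gland, over the 12 bins in order along the arm. Filled points passed an adjusted p of 0.05: none for Rif1, 7 for fat body and 11 for wing disc, where bin 1 is the only one below 0.

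Another scaling shifted the differences over all bins. Quantile normalization moved the median difference over all bins to -0.082 for Rif1 and -0.072 for wing discs, each minus SuUR glands, where it had been 0.089 and 0.13, and the share of all calls that were higher to 49.9% and 44.1%, where it had been 73.9% and 64.6%. For fat body minus SuUR glands the median over all bins became 0.028, where it had been -0.038, the share of calls that were higher 51.2%, where it had been 43.7%, and limma called 10 domain bins higher and 1 lower, against 22.4% and 21.3% of all bins. Against these shifted medians, the domain means exceeded those of SuUR glands by 0.203 in Rif1 glands and 0.593 in wing discs. Libraries also differed in how far their smoothed signal spread over the arms, with SDs of 0.563 and 0.635 in Rif1 glands, 0.387 and 0.394 in wing discs, and 0.765 and 0.668 in SuUR glands. For Rif1 minus SuUR glands, limma without rescaling gave 5 domain bins an unadjusted p under 0.05. After quantile normalization 0 had one, against 42% of all bins. After division by each library's SD 1 had one, against 38.5%.

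Ranks within a library do not depend on such scaling. When all windows of the arms were ranked within each library, UR included, and cut into quartiles, the latest quartile (Q4) held 36.0% and 31.1% of domain windows in Rif1 glands, 18.2% and 19.4% in fat body, and 19.7% and 21.5% in wing discs. In follicle cells it held 24.8% and 16.2%, in SuUR glands 47.6% and 42.3%, and in WT glands 36.3% and 32.4%. Each of the 6 gland libraries placed more domain windows in Q4 than any of the 6 libraries of the other tissues. WT glands placed fewer domain windows in Q4 than SuUR glands did, and their own Q4 began at a rawRT of -1.20 and -1.19, against -0.991 and -0.926 in SuUR glands.

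**Figure D4:**
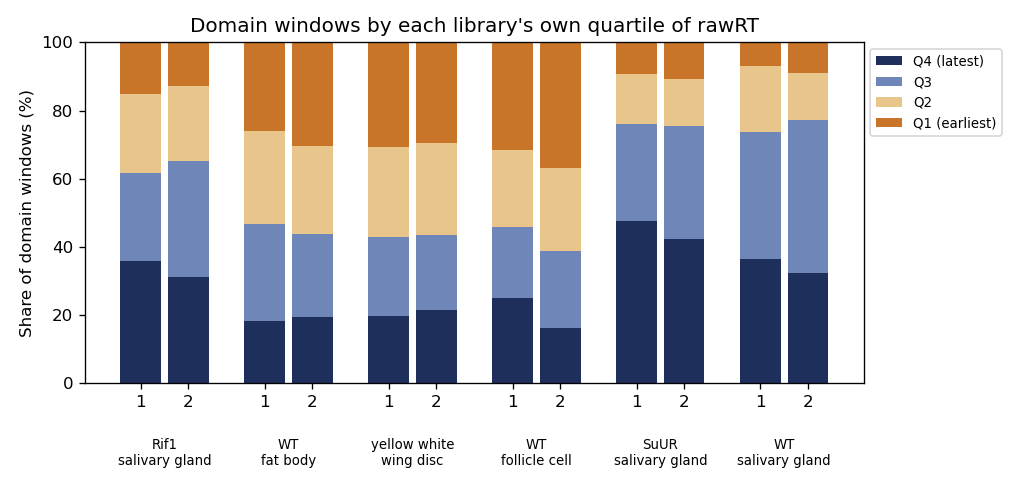
Share of domain windows (%) in each quartile of a library's own rawRT ranks, from the latest (Q4, bottom) to the earliest (Q1, top), for the 12 libraries. Q4 reaches 47.6% in a SuUR gland library and is at most 24.8% in fat body, wing disc and follicle cell.

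The earliest quartile (Q1) mirrored this. It held 15.3% and 12.9% of domain windows in Rif1 glands, 25.9% and 30.3% in fat body, 30.7% and 29.7% in wing discs, 31.7% and 36.8% in follicle cells, 9.25% and 10.7% in SuUR glands, and 7.06% and 9.08% in WT glands. No gland library reached the lowest value of the other tissues.

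Genes are described in order along the arm, by the mean rawRT of the windows they touch; a small gene rests on few windows. At the distal end lie upSET, a SET-domain chromatin protein, and Ptip, a cofactor of histone methyltransferases. Both were above 0 in Rif1 glands (0.684 and 1.20 for upSET) and below 0 in follicle cells (-0.468 and -0.482 for upSET). Over upSET, SuUR glands had 0.0393 and 1.21 and WT glands 0.0907 and 0.632. Hsp110, a chaperone of the Hsp70 family, averaged 1.16 in Rif1, 0.92 in SuUR and 1.05 in WT glands, with -0.0528 and 0.0351 in follicle cells. Not every gene of bin 1 was below 0 in follicle cells. The 3 windows of endos, an inhibitor of the mitotic phosphatase PP2A, averaged 1.25 there and 0.93 in WT glands, with -0.155 and 0.398 in Rif1 glands. Frl, a formin that builds actin filaments, spans the boundary of bins 1 and 2, with means from -0.39 in WT glands to 0.35 in follicle cells.

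Genes of transcription factors come next. Sox21b, of the SoxB family that acts in neural and intestinal development, was late in Rif1 glands (-0.346 and -0.386), near 0 in fat body (group mean 0.021), and late in SuUR (-0.367 and -0.707) and WT glands (-0.515 and -0.591). Follicle cells were also below 0 over it, at -0.428 and -0.223, so values below 0 were not confined to the glands. D (Dichaete), another SoxB gene in bin 4, lies outside the rule by which genes were named and was picked after its values were seen; it averaged 0.017 in Rif1 glands, -0.54 in fat body and -0.79 in WT glands.

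The 3 longest genes lie in the late run of bins 3 to 12. nuf, which acts in membrane recycling during cellularization, spans 42381 bp; it averaged -0.84 in Rif1 glands, -0.082 in fat body, -0.19 in wing discs, -0.092 in follicle cells, -1.19 in SuUR glands and -1.61 in WT glands. fz, the frizzled receptor of Wnt and planar polarity signalling, spans 94297 bp. Over fz, Rif1 glands had -0.510 and -0.539 and fat body -0.888 and -0.536, whereas wing discs averaged -0.10, follicle cells 0.143 and 0.173, SuUR glands -1.28 and -0.938, and WT glands -1.24 and -1.27. It was the only one of the 5 longest genes where fat body averaged below Rif1 glands, and their libraries overlapped there. bbg, a PDZ protein of epithelial junctions and the longest gene at 123449 bp, averaged -0.31 in Rif1 glands and 0.13 in fat body, with -1.04 and -0.553 in SuUR glands and -1.06 and -0.796 in WT glands.

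The proximal genes HGTX, shd and CG9628 lie in bin 12, the bin with the largest fat body minus SuUR gland difference. HGTX, a homeodomain factor of motor neurons, was at -0.341 and -0.912 in Rif1 glands, 0.415 and 0.544 in fat body, -0.726 and -0.971 in SuUR glands, and -0.648 and -0.865 in WT glands. shd encodes the hydroxylase that converts ecdysone into its active form; it was at -0.832 and -1.05 in Rif1 glands and averaged 0.21 in fat body, against -1.39 and -1.07 in SuUR glands. CG9628, the last gene, was at -0.779 and -0.518 in Rif1 glands, 0.210 and 0.431 in fat body, and -1.95 and -1.06 in SuUR glands. In each of these 3 genes every fat body, wing disc and follicle cell library lay above every gland library. Within bin 11, the glycogen-targeting phosphatase subunit Gbs-70E followed the same order (-0.40 in Rif1 glands, 0.38 in fat body, -0.90 in SuUR glands and -0.77 in WT glands), whereas the 4 windows of Mpcp2, the mitochondrial phosphate carrier, averaged 0.099 in WT glands, close to 0.

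**Figure D5:**
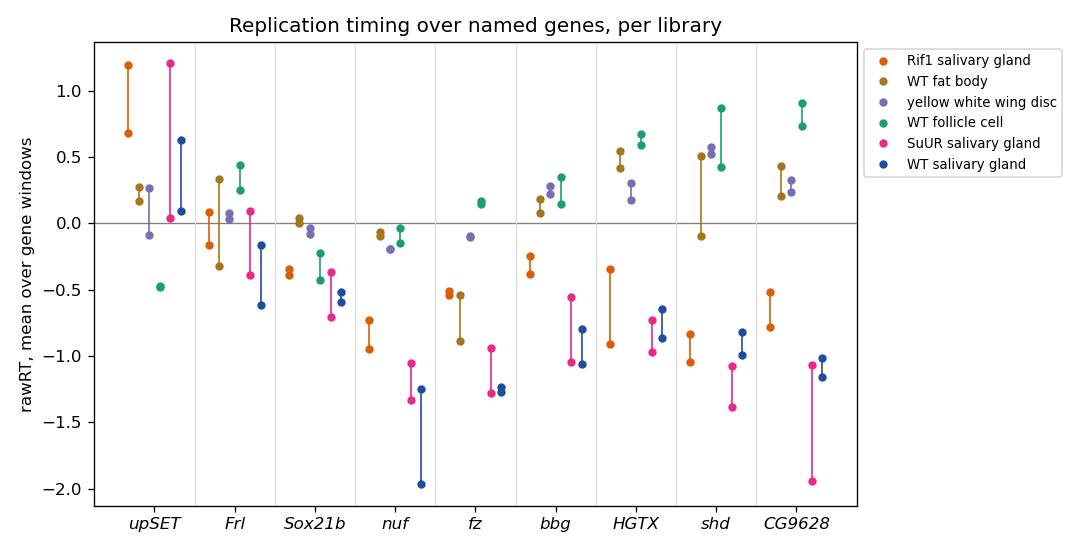
Mean rawRT (vertical axis) over the windows of 9 genes, in order along the arm, for the 2 libraries of each group (joined points). From nuf to CG9628 both WT gland libraries lie below -0.6 and both follicle cell libraries above -0.2, while over upSET the glands lie above follicle cells.

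Transposons and missing values bear on where the domain can be read. Of 11 annotated transposable elements, 5 exceed 400 bp (2 F elements, roo, X and copia, of 428 to 5148 bp), and each falls in a window that spans 2 to 6 kb of the chromosome because windows hold 1000 alignable bases. These 5 windows have no value in any of the 8 gland and fat body libraries and have one in all 4 libraries of the sorted tissues. SuUR replicate 1 lacked a value in 81 of the 600 windows, chiefly in bins 4, 5 and 9. In SuUR replicate 2, the 74 of those windows that had a value averaged -0.926, against -0.606 where both libraries had one, so the windows that replicate 1 lacked were later than the rest in replicate 2. With only the windows present in every library compared, limma called 1 bin higher for Rif1, 5 for fat body and 10 for wing disc, each against SuUR gland, where 19%, 8.93% and 30.3% of all bins were called higher. It also called bin 1 lower in wing disc, against 16.5% of all bins.

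Beyond the limits of the domain, the gland signal changed at both ends. The bin just outside the distal limit averaged 0.54 in Rif1, 0.16 in SuUR and 0.48 in WT glands, with 0.86, 0.86 and 0.61 in the same groups just inside. Just outside the proximal limit the values were -0.10 in Rif1, -0.47 in SuUR and 0.085 in WT glands, with -0.79, -1.20 and -0.96 just inside. The change at the distal end was a fall inside the domain, between bins 1 and 3, whereas at the proximal end the gland values shifted at the limit itself.

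None of the 600 windows lay in a UR region of WT glands, called where a running median of rawRT fell more than 1 SD under the mean (below -2.85) over at least 50 kb, which gave 53 regions. The nearest lies 166 kb to the distal side, at chr3L:13573000-13842000. There rawRT was 0.294 and 0.363 in Rif1 glands, -3.09 and -2.22 in fat body, -0.218 and -0.187 in SuUR glands, and -4.73 and -6.07 in WT glands. In that neighbour SuUR and WT glands were far apart, whereas in the domain they overlapped.

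Relative to the 6 bins on each side, the domain stood at -0.491 ± 0.0252 in Rif1 glands and at -0.472 ± 0.0636 in SuUR glands (SD, n = 2), and these 2 genotypes differed by -0.0192 with overlapping libraries (exact permutation p = 1.0). The sign of that difference turned with the flanks: it was 0.0684 with 3 bins on each side and 0.0145 without UR windows. Fat body exceeded SuUR glands on this measure by 1.09 and wing discs by 0.686, without overlap. Of the 600 flank windows, 134 lie in the UR region of WT glands, where fat body is also low. Without them the fat body difference was 0.678, and with 3 bins on each side 0.306. The proximal flank also holds 2 bins outside UR (chr3L:14838000-14938000) where fat body averaged -1.34 and -1.50, against -0.457 and -0.407 in SuUR glands. These bins remain in the 0.678, whereas flanks of 3 bins leave them out.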

How the data were processed

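Genomic DNA was sequenced from 12 libraries in 6 groups of 2. Reads were aligned by the authors to dm6 with BWA mem 0.7.17; uniquely mapping, non-duplicate reads were counted in windows of 1000 uniquely alignable bases, corrected for GC content, filtered for outliers and scaled. The deposited rawRT score is that value, and the deposited smoothed RT score is its cubic spline. Wing disc and follicle cell scores came from earlier data on sorted cells, and how they were scaled is not given in the sources used here. The authors describe the gland and fat body libraries as biological duplicates; of the others nothing says so, and p-values there may measure technical spread. Window limits are rounded to 1 kb in the files.

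Windows were averaged in bins of 50 (at least 25 values per library). Rif1, fat body and wing disc were each compared with SuUR gland by limma 3.58.1 in R 4.3.3, using the libraries of both groups, with Benjamini-Hochberg adjustment over all bins and a threshold of 0.05. Domain means were compared by exact permutation tests. The fit was tested on simulated shifts. Bins are named by coordinates; genes named overlap the lowest or highest bin of a group, are the first or last of the domain, or are among its 5 longest. The members and lists were chosen with earlier results of these data known. Alternatives covered bin size, minimum values, scaling, smoothing, shared fits, replicate blocks, flank width, the methods' ANOVA of windows and leaving out each library. Gene positions are those of RefSeq for the same assembly.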

Additional observations from a re-analysis of the deposited data

How the results depend on the processing

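The domain mean stayed above that of SuUR glands for Rif1, fat body and wing disc under every alternative run. Leaving out each library in turn gave 0.298 to 0.499 for Rif1, 0.620 to 0.821 for fat body and 0.740 to 0.941 for wing disc. Quantile normalization gave 0.203 for Rif1 and 0.593 for wing disc, and dividing by each library's signal SD gave 0.998 for fat body and 1.28 for wing disc.

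Shares of the domain's bins called moved more, and are followed in parentheses by the share of all bins called in the same fit. The ANOVA takes the windows of a library as replicates, which they are not, so its shares do not rest on variation between libraries. With all 6 groups in one fit, the spread also came from the WT gland and follicle cell libraries that chose the domain. For Rif1 against SuUR glands, 0% (25.6%) became 8.33% with the smoothed table (31.9%) and with windows present in every library (25.4%). It became 25.0% with the replicate block (35.4%) and with the ANOVA of windows (27.6%), and 50% with all 6 groups in one fit (35.3%). For fat body, 58.3% (21.7%) became 33.3% with bins of 25 windows (18.2%), which is 7 of 21 bins in place of 7 of 12. It became 91.7% with quantile normalization (43.7%) or all 6 groups in one fit (47.3%), each with 1 bin lower. With the replicate block it was 16.7% (7.41%), and with crossed numbers in the block 33.3% (18.3%). For wing disc, 91.7% (47.2%) became 25.0 to 100% (12.4 to 67.6%) over single-library omissions. The replicate block changed no wing disc bin count in the domain (49.1%). Nothing in the labels pairs libraries of one number, whose deviations over bins correlated at 0.224 (Rif1 and SuUR), -0.301 (fat body and SuUR) and 0.0911 (wing disc and SuUR). Crossed numbers and windows present in every library were tried after seeing the data, as were flanks without UR.

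The domain minus flanks difference from SuUR glands reversed for Rif1: -0.0192 became 0.0684 with 3 bins on each side, 0.0145 without UR windows and 0.00735 with the smoothed table, was -0.135 with 12 bins and -0.164 after scaling by signal SD, and ran from -0.0642 to 0.0258 over single-library omissions. For fat body it was 0.306, 1.29 and 0.678 with 3 bins, 12 bins and without UR windows, 1.76 after scaling, and 1.02 to 1.16 over omissions. For wing disc these were 0.513, 0.834, 0.561 and 1.21, and 0.641 to 0.731. The cause was not tested. With 2 libraries a group and depth unknown, precision is limited.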

Other observations

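On the proximal side of the domain, from 830 to 930 kb past its distal limit (chr3L:14838000-14938000), fat body was later than WT glands, whereas over the domain it was earlier. In the first of these 2 bins rawRT was -1.62 and -1.06 in fat body, against -0.143 and -0.317 in WT glands, and in the second -1.78 and -1.22 in fat body, against -0.247 and -0.423 in WT glands. Rif1 glands had 0.253 and 0.0159 in the first bin and 0.396 and 0.105 in the second, while SuUR glands had -0.323 and -0.591, then -0.290 and -0.524. Wing discs had -0.362 and -0.278 in the first bin and -0.0765 and 0.171 in the second, and follicle cells -0.407 and -0.292, then -0.487 and -0.503. The stretch was picked after its values were seen and was not tested.

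Within the domain, the 5 windows of Fbp1, a fat body receptor for storage proteins named here after its values were seen, had -0.0989 and 0.388 in fat body and 0.250 and 0.394 in WT glands, so the libraries of the tissues overlapped over this gene.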
